A study of Homo sapiens with 6 samples.

Results

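The R-loops described here were present in both untreated and N2-heptynyl-dG-treated HEK293T cells, but their mapped borders differed between the 2 conditions. They were chosen by comparing the untreated list of R-loop peaks with the treated list. A pair consisted of 1 untreated and 1 treated peak that overlapped on the same strand by at least 1 bp, neither of which overlapped another same-strand peak of the other list. Of 7443 such pairs, 4147 had a different start or end in the treated list and are the members, which is 55.7% of the pairs, and 3296 had identical borders. The borders themselves chose the members, so their moves are given as a description without a test. The untreated list held 10231 peaks and the treated list 11085. A further 192 untreated and 231 treated peaks belonged to groups of several overlapping peaks, and 2596 untreated and 3411 treated peaks had no same-strand partner.

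HEK293T is an established human embryonic kidney cell line. R-loops were mapped by strand-specific kethoxal-assisted single-stranded DNA sequencing (spKAS-seq), in which N3-kethoxal labels guanine in single-stranded DNA and the enriched strand is recorded. The study sequenced 2 untreated samples, 2 samples exposed to 10 µM N2-heptynyl-dG for 3 h, and 2 input samples, and cells for labelling received 5 mM N3-kethoxal for 10 min. Per the methods both spKAS-seq replicates were used to identify R-loops. One peak list per condition was analysed, attached to replicate 1 of its group. How far a border moves between replicates of 1 condition is therefore unknown, and the move with treatment cannot be told apart from the scatter of peak calling.

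An R-loop forms when nascent RNA pairs with the template DNA strand behind RNA polymerase and displaces the other strand as single-stranded DNA. These structures are known at promoters with GC-rich sequence and at the ends of genes, where polymerase slows before termination. N2-alkyl-dG nucleosides such as N2-heptynyl-dG can be incorporated into DNA, where the alkyl group lies in the minor groove, a position that hinders transcription. At a sense R-loop the displaced, kethoxal-reactive strand has the sequence of the coding strand. The strand of each peak was used here to set direction: the upstream border is the one nearer to the 5′ side of the peak strand, and the downstream border the one nearer to its 3′ side. An outward move means that the treated peak reached further than the untreated peak, and an inward move that it stopped short of it.

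The stretches that changed hands between the lists can be read directly as sequence. A gained stretch lay in the treated peak only, and a lost stretch in the untreated peak only. The following 250-bp windows lie at the far end of such stretches, hold no annotated exon, and are shown to let the gained and lost sequence be compared. They were taken from 29 eligible windows of named members, 16 gained and 13 lost, after their composition had been seen. Cytosine made up 18.0% to 38.8% (median 24.4%) of the eligible gained windows and 14.4% to 29.6% (median 21.2%) of the lost ones, so the 2 kinds overlapped. Each is written 5′ to 3′ along the peak strand from GRCh37 (hg19), with runs of at least 3 cytosines in capitals.

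The gained windows came from the downstream border at JMJD4 and the upstream border at TOP3B. They lie at chr1:227915011-227915260 and chr22:22332511-22332760, both on the minus strand. Cytosine made up 30.0% and 38.8% of their bases, above the median of the eligible gained windows, and the TOP3B value is the highest among them. The JMJD4 peak lay wholly beyond the end of the canonical transcript in both lists, and reached 3881 bp past it in the treated list.
JMJD4, gained downstream: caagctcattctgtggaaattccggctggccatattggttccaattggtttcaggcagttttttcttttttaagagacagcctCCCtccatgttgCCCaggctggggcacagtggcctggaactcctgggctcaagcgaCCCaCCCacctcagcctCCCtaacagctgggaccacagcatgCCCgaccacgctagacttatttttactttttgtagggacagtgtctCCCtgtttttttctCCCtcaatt
TOP3B, gained upstream: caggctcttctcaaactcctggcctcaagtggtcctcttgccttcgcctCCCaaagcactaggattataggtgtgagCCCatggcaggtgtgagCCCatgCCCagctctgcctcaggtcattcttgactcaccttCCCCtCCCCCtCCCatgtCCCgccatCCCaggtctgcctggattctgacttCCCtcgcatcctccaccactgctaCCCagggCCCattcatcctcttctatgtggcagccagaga

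The lost windows came from the upstream border at DRAM2 and the downstream border at EIF4A2 and STK17A. They lie at chr1:111676458-111676707 on the minus strand and at chr3:186508643-186508892 and chr7:43623501-43623750 on the plus strand. Cytosine made up 18.8%, 14.4% and 27.2% of their bases. The first 2 lie below and the STK17A window above the median of the eligible lost windows, and the EIF4A2 value is the lowest among them. The contrast between the printed windows is therefore larger than that between the medians.
DRAM2, lost upstream: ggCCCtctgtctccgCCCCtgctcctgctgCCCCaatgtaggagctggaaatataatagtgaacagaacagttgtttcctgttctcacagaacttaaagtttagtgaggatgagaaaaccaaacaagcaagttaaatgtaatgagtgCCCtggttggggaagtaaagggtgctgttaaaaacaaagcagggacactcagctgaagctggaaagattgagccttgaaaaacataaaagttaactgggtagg
EIF4A2, lost downstream: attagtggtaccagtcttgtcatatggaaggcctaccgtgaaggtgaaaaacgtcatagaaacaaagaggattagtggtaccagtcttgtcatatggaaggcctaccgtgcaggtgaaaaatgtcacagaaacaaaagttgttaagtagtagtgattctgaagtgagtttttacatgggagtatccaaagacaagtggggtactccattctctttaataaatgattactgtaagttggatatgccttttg
STK17A, lost downstream: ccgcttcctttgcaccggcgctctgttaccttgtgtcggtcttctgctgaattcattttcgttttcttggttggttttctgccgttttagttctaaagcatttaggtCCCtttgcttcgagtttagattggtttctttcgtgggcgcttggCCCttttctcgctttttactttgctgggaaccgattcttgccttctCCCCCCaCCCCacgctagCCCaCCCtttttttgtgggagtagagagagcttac

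As many members widened as narrowed with treatment. The treated peak was wider in 1863 members (44.9%), narrower in 1866 (45.0%) and of equal width in 418 (10.1%), with a median width of 1000 bp before and after treatment. The downstream border moved more often than the upstream border. The downstream border differed in 2922 members (70.5%, 95% Wilson interval 69.1 to 71.8%) and the upstream border in 2419 (58.3%, 56.8 to 59.8%), including 1194 members in which both moved. Wilson intervals here and below cover counting error only.

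The 2 borders leaned in opposite senses relative to the peak, which is the same sense along the strand. Upstream moves were outward in 1123 members and inward in 1296, so 46.4% were outward (44.4 to 48.4%). Downstream moves were outward in 1586 members and inward in 1336, so 54.3% were outward (52.5 to 56.1%). Of members in which both borders moved, 462 slid downstream and 344 slid upstream, while 204 grew and 184 shrank at both borders. The midpoint of the peak lay on average 20.0 bp further downstream in the treated list, a small part of the spread between members (SD 256 bp, n = 4147). The mean midpoint shift was downstream on 20 of 23 chromosomes. It was 22.3 bp for plus-strand and 17.7 bp for minus-strand members, so the lean over all members followed the strand of the peak and not the direction of the chromosome. The shift was not even across members. Among the classes defined below it ran from 7.32 bp at sense promoters (SD 217 bp, n = 1827) to 35.6 bp at sense terminal regions (SD 291 bp, n = 969). By untreated width it ran from -6.88 bp at 1000 bp to 70.3 bp at 2000 bp or more.

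Most moves were small. Every border shift was a whole multiple of 250 bp, the step (window) on which the peak borders lie, and a single window accounted for 73.6% of upstream and 68.0% of downstream moves. Moves of at least 1000 bp occurred at 80 upstream borders (30 outward, 50 inward) and 101 downstream borders (60 outward, 41 inward). The longest reached 2500 bp outward and 2000 bp inward at the upstream border, and 2000 bp outward and 1500 bp inward at the downstream border. The 2500-bp move was at NBPF12, a gene of a multicopy family whose near-identical copies make read placement uncertain, where chr1:146470073-146470572 in the untreated list became chr1:146467573-146470572. At the edge of the rule, 266 members overlapped by the smallest amount, 250 bp, and 2147 moved by 1 window in all. Just outside it, 72 untreated peaks without a partner abutted a same-strand treated peak and a further 47 lay 1 window away from one.

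**Figure D1:**
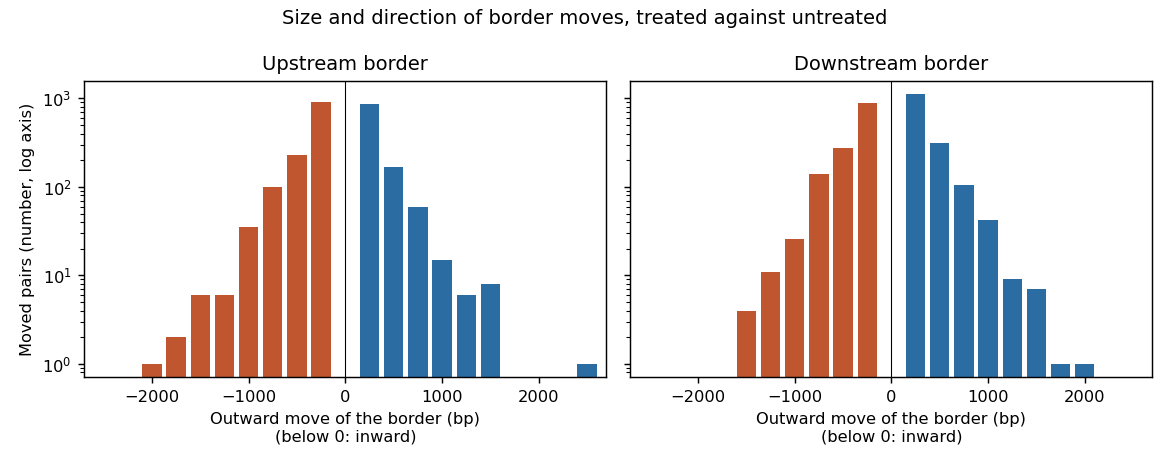
Number of members (log axis) by the outward move of the upstream (left) and downstream (right) border in bp, treated against untreated; moves below 0 (orange) were inward and moves above 0 (blue) outward, and borders that did not move are left out. Most moves are 250 bp; inward moves outnumber outward moves at the upstream border (1296 against 1123) and outward moves outnumber inward ones at the downstream border (1586 against 1336).

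R-loops at the ends of genes moved most often and promoter R-loops least often. Pairs were classed by where their union lay relative to GENCODE v44lift37 transcripts. A sense promoter pair touched the last 1000 bp before a same-strand start or the first 100 bp after it. A sense terminal pair touched the last 100 bp before a same-strand end or the first 1000 bp after it. A border had moved in 1827 of 3911 sense promoter pairs (46.7%, 45.1 to 48.3%) and in 969 of 1244 sense terminal pairs (77.9%, 75.5 to 80.1%). Antisense promoter pairs stood near the former, at 49.3%. Intergenic pairs (67.8%), pairs in sense gene bodies (65.7%) and pairs in antisense gene bodies (72.1%) lay between. Sense promoters therefore held 44.1% of the members but 63.2% of the pairs with identical borders, and sense terminal regions 23.4% and 8.34%.

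Over all pairs, width went along with the share that had moved. Of pairs with an untreated width of 500 bp, 35.5% had moved, against 77.4% of those of at least 2000 bp. At sense terminal regions there was no such trend, with 74.3% to 78.7% moved in each of 5 width groups. The class difference was therefore widest among the narrowest peaks: 32.0% of sense promoter and 76.9% of sense terminal pairs had moved at an untreated width of 500 bp, and 48.5% and 74.3% at 750 bp. At 1000 bp the shares were 65.6% and 78.7%. From there to under 2000 bp they were 69.5% and 78.4%, and at 2000 bp or more 69.5% and 78.6%. Peaks of 500 bp were the narrowest in the lists apart from 1 untreated peak of 153 bp, so such peaks could only widen, slide or stay, and the direction of a move is tied to width.

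The place in the gene also went along with the border that moved. At sense promoters the downstream border had moved in 69.9% of members and the upstream border, which lies nearest to the gene start, in 50.3%. At terminal regions both borders moved about equally often (68.8% and 69.9%). Downstream moves were outward in 52.8% to 54.9% of cases in every class. Upstream moves were outward in 51.7% (48.5 to 54.9%) at sense promoters, and in 40.0% (36.4 to 43.8%) at sense terminal regions, where 406 were inward and 271 outward. This contrast depended on how peak width was taken into account. At an untreated width of 750 bp, 39.5% of upstream moves were outward at sense promoters and 59.2% at terminal regions, the reverse order, and at 1000 bp the shares were 43.8% and 41.9%. At a treated width of 750 bp they were 69.1% and 28.1%, and at 1000 bp 64.3% and 36.0%. Terminal peaks were wider, so the contrast between the classes cannot be told apart from their widths. The upstream border of terminal R-loops lay on average 58.8 bp further downstream in the treated list (SD 394 bp, n = 969), against −1.23 bp at sense promoters (SD 242 bp, n = 1827).

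**Figure D2:**
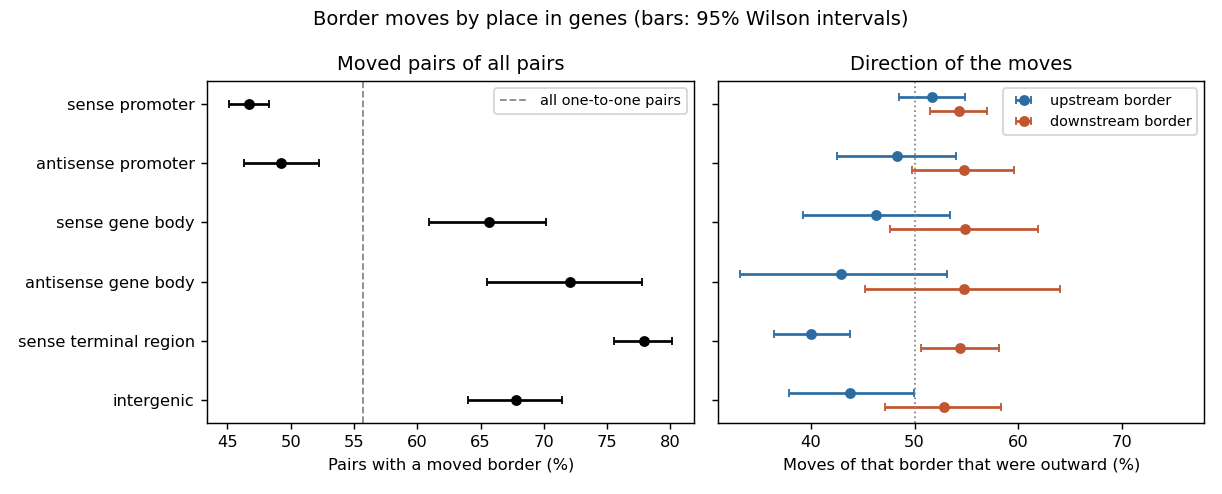
Left, percent of one-to-one pairs with a moved border by class (dashed line, all pairs, 55.7%); right, percent of the moves of the upstream (blue) and downstream (orange) border that were outward (dotted line, 50%), with 95% Wilson intervals. Sense terminal pairs moved most often (77.9%) and 40.0% of their upstream moves were outward, without regard to peak width.

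Close to gene starts the treated peaks gained more length than they lost. Distances were measured for 1467 sense promoter members from the start of the canonical transcript of a same-strand protein-coding gene. The gene with the longest overlap was used, so this start was not always the one that classed the pair. At PSMA5, for example, the untreated sense promoter peak began 25113 bp after the start used. In the first 1000 bp after the start, 138 kb of peak length was gained and 110 kb lost, a ratio of 1.26. In the 2000 bp before the start the ratio was 1.17, and from 1000 to 3000 bp after it 0.823. These zones were mixed: gain exceeded loss in each 250-bp step from 750 bp before to 750 bp after the start, and loss exceeded gain in each step from 2000 to 750 bp before it and from 750 to 1500 bp after it. In the step farthest before the start 1676 bp were gained and 3587 bp lost. The median upstream border lay 204 bp before the start in the untreated and 222 bp before it in the treated list, and the median downstream border 532 and 560 bp after it. The balance turned at the ends of genes, but peak width was not taken into account. Mean untreated width was 929 bp over all sense promoter members and 1442 bp over all sense terminal members. The contrast between starts and ends therefore cannot be told apart from width. Over 811 sense terminal members near a canonical protein-coding end, the last 1000 bp before the end gained 16.5 kb and lost 31.9 kb (ratio 0.516), and the first 1000 bp after it gained 65.8 kb and lost 90.8 kb (0.724). From 1000 to 3000 bp beyond the end the ratio was 1.04, with more loss than gain in each step up to 1750 bp and more gain than loss in each step beyond it.

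**Figure D3:**
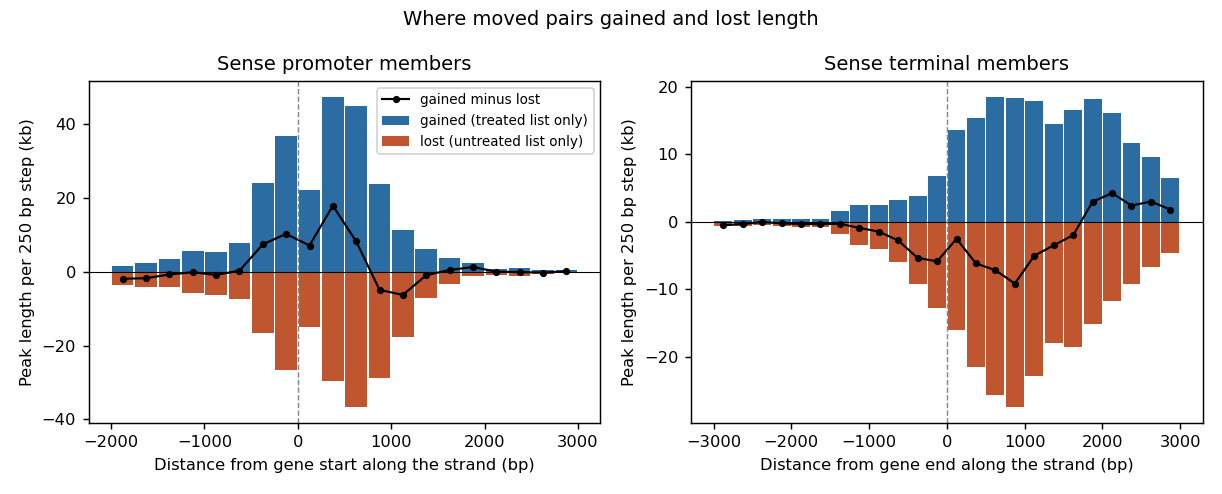
Peak length gained (blue, above 0) and lost (orange, drawn below 0) with treatment in steps of 250 bp, with the difference as a black line, against the distance from the gene start for 1467 sense promoter members (left) and from the gene end for 811 sense terminal members (right). Gain exceeded loss in the first 1000 bp after the start (138 against 110 kb), and loss exceeded gain in the first 1000 bp after the end (90.8 against 65.8 kb). Peak width was not taken into account.

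Start sites were more often taken up than given up, but the counting interval included an even split. With 1 canonical start per protein-coding gene, 106 starts were covered by the treated peak only, 82 by the untreated peak only and 869 by both. Newly covered starts were 56.4% of those that changed (49.2 to 63.3%). For gene ends the counts leaned the other way, with 57 newly covered, 78 newly uncovered and 195 covered in both, or 42.2% newly covered (34.2 to 50.7%). Over every annotated transcript of these genes, 586 starts were newly covered and 529 newly uncovered (52.6%), against 147 and 235 ends (38.5%). In the canonical transcripts of host genes of 2099 members, first exons made up 9.21% of the gained and 5.70% of the lost length, while later exons made up 9.70% and 14.7%. All classes and peak widths were pooled in these shares, and their part in the contrast was not tested.

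The 5 named members whose treated peak newly covered a start illustrate the scale of these moves. WNK1 encodes a kinase that controls cation-chloride cotransporters. Its untreated peak, chr12:862751-863250, began 1006 bp inside the gene and its treated peak, chr12:861501-863250, began 244 bp before the start, a move of 1250 bp with the other border unchanged. NOVA1, a neuronal splicing regulator, changed in the same way: the upstream border at chr14:27066151-27066900 in the untreated list lay 339 bp after the start, in the 5′ UTR, and at chr14:27066151-27067650 in the treated list 411 bp before it. At ATP6V1FNB the peak chr7:128507072-128507821 grew at both borders to chr7:128506322-128508071, and its upstream border passed from 688 bp after to 62 bp before the start.

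STK17A, a serine/threonine kinase gene, and LCT, which encodes intestinal lactase, slid onto their starts. The STK17A peak chr7:43623251-43623750 became chr7:43622501-43623500, so that its upstream border passed from 544 bp after to 206 bp before the start and its downstream border drew back by 250 bp. The LCT peak came from the other side. It lay wholly before the gene in the untreated list (chr2:136595196-136597195, ending 442 bp before the start) and reached 308 bp into it in the treated list (chr2:136594446-136596445).

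Members that gave up a start were of similar size. ADAR encodes the adenosine-to-inosine RNA editing enzyme. Its untreated peak chr1:154580080-154581329 began 667 bp before the start, and its treated peak chr1:154580080-154580579 began 83 bp after it, in the 5′ UTR. RPL38, a protein of the large ribosomal subunit, drew back from 314 bp before to 436 bp after its start, and CCDC18 from 133 bp before to 617 bp after. All 3 moved by 750 bp at that border, and the downstream border of CCDC18 also moved outward by 250 bp. VMO1 differed from these, since its peak slid away from the gene. It spanned 841 bp before to 158 bp after the start in the untreated list (chr17:4689501-4690500) and 2341 to 342 bp before the start in the treated list (chr17:4690001-4692000).

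Of 7 genes listed because the study names them, 2 had a one-to-one pair, and 1 of their 3 pairs was a member (33.3%, against 55.7% over all pairs). GAPDH, the glycolytic enzyme gene often used as a reference, had an untreated peak at chr12:6643501-6645000 and a treated peak at chr12:6643751-6645000. The upstream border passed from 182 bp before to 68 bp after the canonical start, a move of 1 window.

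**Figure D4:**
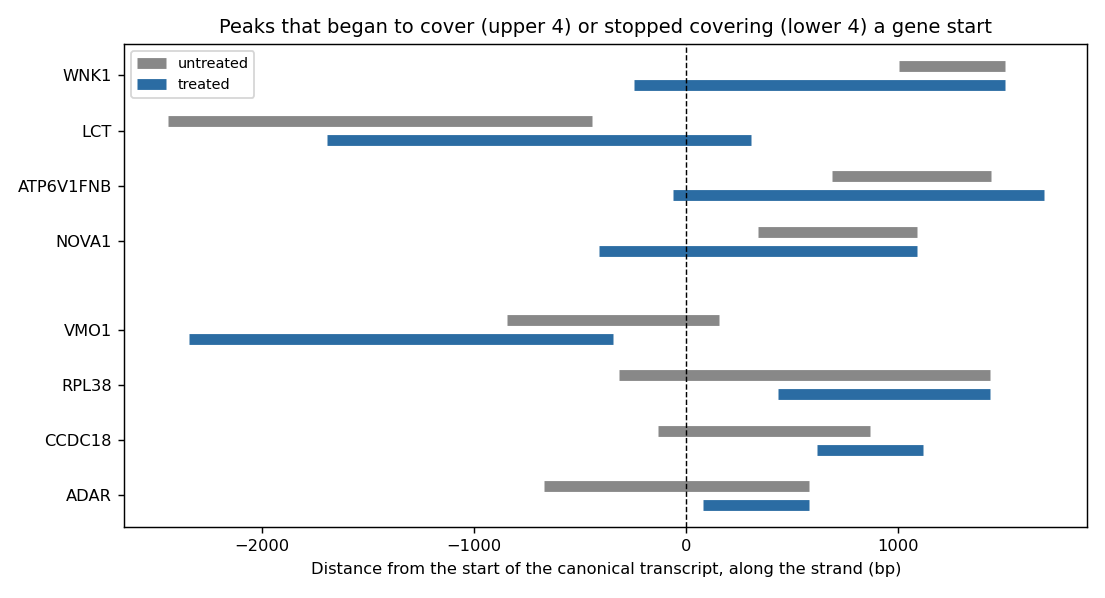
Untreated (grey) and treated (blue) peaks of 8 named members that crossed a gene start, drawn along the strand by distance in bp from the start of the canonical transcript (dashed line). WNK1 to NOVA1 (upper 4) began to cover the start in the treated list, and VMO1 to ADAR (lower 4) stopped covering it, with upstream moves of 750 to 1500 bp.

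At the ends of genes, several of the largest moves took the upstream border out of the 3′ UTR and past the annotated end. At TSR1, a gene for a factor in assembly of the small ribosomal subunit, the border moved inward by 1750 bp, from 310 bp before to 1440 bp after the end, and left a peak of 500 bp (chr17:2223751-2226000 to chr17:2223751-2224250). At IPO9, a nuclear import receptor gene, it moved by 1500 bp, from 1456 bp before to 44 bp after the end (chr1:201851963-201854212 to chr1:201853463-201854212). ZNF189, which encodes a zinc-finger protein, showed the same size of move, from 659 bp before to 841 bp after its end. ID4, an inhibitor of DNA binding by helix-loop-helix factors, moved by 1000 bp from 927 bp before to 73 bp after.

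The opposite move was seen at named genes as well. COX7B encodes a cytochrome c oxidase subunit, and its upstream border moved outward by 1500 bp, from 458 bp after the gene end to 1042 bp before it, in the 3′ UTR (chrX:77163331-77164330 to chrX:77161831-77164330). ZNF658 likewise passed from 166 bp after to 1334 bp before its end, into coding sequence. At the downstream border, LMX1B, a LIM homeobox transcription factor gene, lost 1250 bp beyond its end, with the border falling back from 1465 to 215 bp after it. The peak at MORF4L2, which encodes a chromatin protein, drew back by 1250 bp at the same border, from 2406 to 1156 bp after the end, and by 250 bp at the other. Among the widest members, the ACTG1 peak slid downstream: its upstream border moved inward by 500 bp, from 433 bp before to 67 bp after the end of this gamma-actin gene, and its downstream border outward by 250 bp, to 3316 bp after it.

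Inside genes the largest moves ran both ways. CCT4 encodes a subunit of the chaperonin that folds actin and tubulin. Its treated peak, chr2:62099818-62102567, was 2750 bp wide against 1000 bp in the untreated list (chr2:62100068-62101067), and both upstream borders lay in intron 8. At NELFB, a subunit of the negative elongation factor that holds paused polymerase, a 1000-bp peak became 2500 bp wide (chr9:140156777-140157776 to chr9:140156527-140159026), and its downstream border passed from intron 5 to intron 6. DRAM2, a lysosomal membrane protein gene, went the other way, from 2750 bp (chr1:111673958-111676707) to 500 bp (chr1:111674708-111675207), with the treated peak wholly in intron 3. SLIT2, which encodes an axon guidance ligand, kept its upstream border 28 bp after the start while the downstream border drew back from 3027 to 1527 bp after it. SLIT2 and CROCC, the gene of rootletin, each hosted 4 members, the most of any protein-coding gene.

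The remaining large moves lay near the ends of their gene records or at overlapping genes. The treated peaks at MRPL53, a mitochondrial ribosomal protein gene, and PSMA5, a proteasome subunit gene, reached 1500 bp further downstream, and same-strand CCDC142 and SORT1 overlap these places. At XPOT, the tRNA exportin gene, the downstream border drew back by 1250 bp, and same-strand TBK1 lies there too. MRPL23, another mitochondrial ribosomal protein gene, gained 1250 bp downstream at a peak beyond the end of its canonical transcript. Peaks at FPGS and HOOK2 lay 8884 and 21478 bp before the canonical starts, at the upstream border of the untreated peak. At NDUFB9, a gene of respiratory complex I, the untreated peak began 2818 bp beyond the canonical end. That border moved inward by 2000 bp and the downstream border outward by 1000 bp, so the peak slid downstream. The widest unions were at JMJD4, ACTG1 and TTC34, where the 2 peaks shared 3000 bp each.

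The cytosolic ribosomal protein genes had 95 one-to-one pairs, of which 49 were members (51.6%, 41.7 to 61.4%), close to the 55.7% over all pairs. Their downstream border moved outward in 24 members and inward in 9, and their upstream border outward in 9 and inward in 17. Over all members the outward shares were 54.3% and 46.4%. Where only pairs that held the gene start were counted, 25 of 60 were members (41.7%), with 13 downstream moves outward and 5 inward, and 5 upstream moves outward and 4 inward. RPL37A slid downstream by 250 bp at its upstream and 500 bp at its downstream border (chr2:217368992-217371991 to chr2:217369242-217372491), wholly beyond its end. RPL35 lost 750 bp at its upstream border, which passed from 364 bp before to 386 bp after the gene end. The RPL30 peak, which lay wholly beyond the gene end in both lists, slid downstream by 500 bp at both borders.

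Genes for R-loop processing factors had 21 pairs at 18 genes, of which 6 were members (28.6%, 13.8 to 49.96%). The interval includes the 46.7% over sense promoter pairs but not the 55.7% over all pairs. Where only pairs that held the gene start were counted, 2 of 14 were members (14.3%, 4.0 to 39.9%). Peak width was not taken into account, and 32.0% of sense promoter pairs had moved at an untreated width of 500 bp. TOP3B encodes a topoisomerase that acts on RNA and single-stranded DNA, and its peak in intron 1 slid upstream by 500 bp (chr22:22331511-22332260 to chr22:22332011-22332760). DHX9, a helicase that unwinds RNA-DNA hybrids, lost 250 bp at the downstream border of its promoter peak, from 1230 to 980 bp after the start. At BLM, a RecQ helicase gene, the upstream border moved inward by 250 bp within the 3′ UTR.

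Nucleotide excision repair and translesion synthesis genes held 12 members among 20 pairs (60.0%, 38.7 to 78.1%), an interval that includes the 55.7% over all pairs. Of the downstream moves 2 were outward and 7 inward, where 54.3% were outward over all members, and of the upstream moves 4 were outward and 4 inward. The promoter peak of UBE2B, a ubiquitin-conjugating enzyme of post-replication repair, narrowed from 1000 to 500 bp, by 250 bp at each border. CCNH, the cyclin of the kinase module of TFIIH, went the other way, from 500 to 1000 bp, and its upstream border passed from 24 bp after to 226 bp before the start.

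Genes of RNA processing and translation were near the overall share. SR protein and hnRNP genes had 14 members among 26 pairs (53.8%) and translation factor genes 21 among 33 (63.6%). HNRNPA1 slid downstream by 500 bp at both borders, so that the upstream border passed from 325 bp before to 175 bp after the gene end. HNRNPDL lost 250 bp at each border and SRSF7, a splicing factor gene, 500 bp at the downstream border of its promoter peak. EIF3I encodes a subunit of an initiation factor complex, and its peak lay wholly beyond the gene end in both lists. It grew by 750 bp upstream and 500 bp downstream. EIF4A2 encodes an RNA helicase of cap-dependent initiation. Its peak slid upstream, by 750 bp at the upstream and 250 bp at the downstream border. The upstream border passed from 707 bp after to 43 bp before the gene end. EIF4G1 encodes the scaffold of the cap-binding complex. A peak that began 2 bp after its end in both lists extended downstream by 750 bp, and same-strand FAM131A overlaps this place.

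Heat shock protein genes held 8 members among 23 pairs (34.8%, 18.8 to 55.1%), an interval that includes the 46.7% over sense promoter pairs but not the 55.7% over all pairs. Of pairs that held the gene start, 4 of 18 were members (22.2%, 9.0 to 45.2%). Peak width was not taken into account. The peak at HSPA9, the mitochondrial HSP70 gene, slid upstream, by 1000 bp at its upstream and 250 bp at its downstream border. HSPA8, the constitutive HSP70 gene, lost 250 bp at each border of a 1500-bp promoter peak, and HSPA4L gained 250 bp upstream and lost 500 bp downstream. The immediate early genes were near the share over all pairs, with 21 members among 39 pairs (53.8%), among them JUN, an AP-1 subunit, cut from 1500 to 750 bp at its downstream border and IER5L extended from 750 to 1500 bp at the same border. The small nucleolar RNA host genes had 23 among 35 (65.7%, 49.2 to 79.2%, an interval that includes 55.7%), with SNHG16 narrowed from 2000 to 1000 bp. SNHG8 slid downstream and SNHG26 upstream, each by 500 bp at the upstream and 750 bp at the downstream border.

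Members less often had an R-loop of the opposite strand close behind them. An opposite-strand peak of either list lay within 1000 bp upstream of 22.4% of identical pairs (21.0 to 23.9%), 12.1% of members whose upstream border had stayed, 7.03% of members with an outward upstream move and 7.72% with an inward one. Sense and antisense promoter pairs made up 63.2% and 16.7% of the identical pairs and 44.1% and 12.9% of the members, and their part in this difference was not tested.

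Gained stretches were richer in cytosine than lost stretches, while guanine, the base that kethoxal labels, did not separate them when all classes were pooled. The reference sequence of every gained and lost 250-bp window was read on the peak strand. At the upstream border the median cytosine content was 26.4% over 1527 gained windows and 24.0% over 1902 lost windows. At the downstream border it was 26.0% over 2314 gained and 24.0% over 2028 lost windows. Median guanine content was 26.4% and 26.0% upstream, and 24.8% in both kinds downstream. Cytosine was higher in the gained windows in all 12 combinations of class and border, by 0.40 to 5.2 percentage points, and guanine in 4 of the 12. The sum of both bases was higher in 10 of the 12. Median guanine was 27.2% in gained and 25.6% in lost windows at the downstream border of sense promoter members. At the upstream border of sense terminal members it was 23.6% and 24.8%. Windows kept in both peaks had 26.8% cytosine, and the windows just outside both peaks 25.2% upstream and 23.2% downstream. The quartiles of gained and lost windows overlapped broadly.

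The same contrast appeared in motif counts on the strand opposite to the peak. A G-quadruplex motif was counted as 4 runs of at least 3 guanines separated by 1 to 7 bases. On the opposite strand it occurred in 9.82% of gained (8.43 to 11.4%) and 5.57% of lost windows (4.63 to 6.70%) at the upstream border, and in 7.0% (6.03 to 8.11%) and 4.24% (3.45 to 5.21%) at the downstream border. On the peak strand itself the shares were 8.12% and 6.05% upstream and 5.32% and 3.90% downstream. Windows kept in both peaks held it in 7.66% of cases on the opposite and 4.96% on the peak strand. Opposite-strand motifs were more frequent in gained windows in 8 of the 12 combinations, and not at terminal or intergenic members. The widest gap was at the upstream border of antisense promoter members, with 24.9% of 185 gained and 9.50% of 200 lost windows. The gained TOP3B window and the lost STK17A window printed above hold such a motif on the opposite strand.

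Peaks present in 1 list only differed in the same measure. Over windows of the 3411 treated-only peaks the median cytosine content was 29.2% and the opposite-strand motif share 11.4%. Over those of the 2596 untreated-only peaks they were 25.6% and 6.59%. Median guanine content was 27.2% and 26.4%. These peaks come from the same 2 lists as the members and are no separate experiment, and read depth, which the lists do not hold, was not compared.

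**Figure D5:**
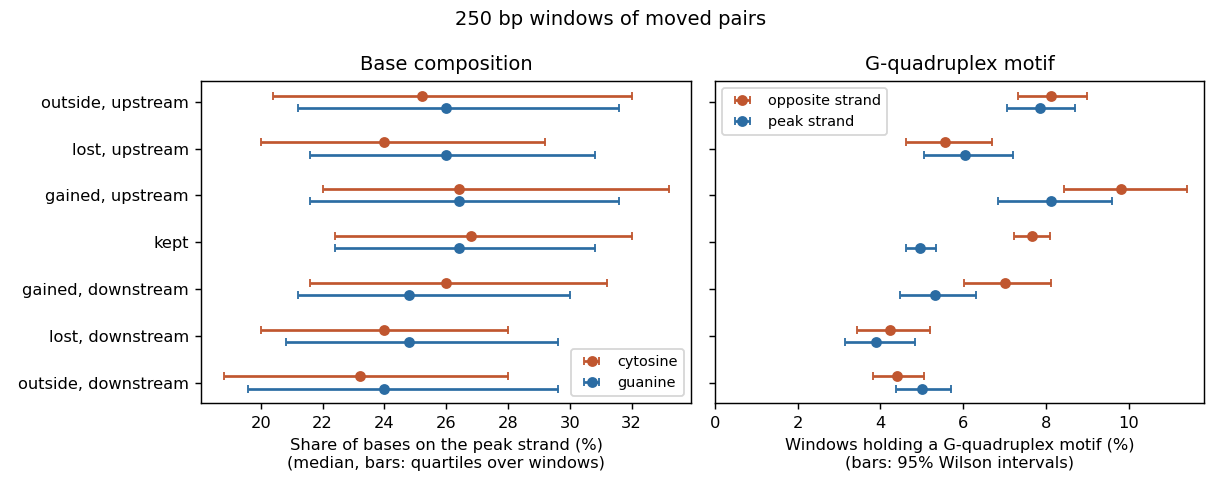
Left, median (bars, quartiles) cytosine (orange) and guanine (blue) content of the peak strand in 250-bp windows of members, ordered from outside the upstream border to outside the downstream border; right, percent of windows with a G-quadruplex motif on the opposite (orange) or peak (blue) strand with 95% Wilson intervals. Cytosine and opposite-strand motifs were higher in gained than in lost windows at both borders (26.4% against 24.0% and 9.82% against 5.57% upstream).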

How the data were processed

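Per the labels and the methods, spKAS-seq reads were trimmed (Trim Galore), aligned to hg19 (Bowtie2) and cleared of duplicates (Picard), and R-loops were identified from 2 replicates by an earlier published procedure. Tool versions and the peak threshold are not given in the sources used here. The authors deposited 1 peak list per condition with 4 columns (chromosome, start, end, strand) and no score or count, so the depth behind a peak is unknown. No test over samples was made, since only the 2 peak lists were analysed. Each list is attached to 1 replicate, and the lists themselves do not say how the replicates were combined. No peak on a named chromosome (21213 of them) ran past its GRCh37 end.

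Peaks were paired by same-strand overlap of at least 1 bp, and the shift of each border was measured along the strand with Python 3.11.15, numpy 2.4.6, pandas 2.3.3 and pysam 0.24.0. The code was tested on simulated lists. Genes came from GENCODE release 44 lifted to GRCh37, with the canonical transcript for distances. Classes were assigned in the order sense promoter, antisense promoter, sense terminal, sense gene body, antisense gene body, intergenic. A gene hosted a peak on its strand within its body or 1000 bp upstream. Named members were taken among members on chromosomes 1 to 22 and X at a same-strand protein-coding gene with a canonical transcript in the annotation, which left out NBPF12. They were the 5 with the largest move of each kind, the 5 that newly covered and the 5 that newly uncovered a start, the 3 widest, those at genes the study names, and the 3 with the largest summed move in each gene list. The members, gene lists and named genes were chosen with earlier results of these data known. Some named members and windows are not reported here. Base composition was read from GRCh37. Alternatives concerned the overlap, peak width, chromosomes, grouping, promoter window, start sites and window counting.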

Additional observations from a re-analysis of the deposited data

How the results depend on the processing

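No paired analysis was possible because a single untreated list was set against a single treated list and no result comes from a test. Of 56 alternative values for the main results, 40 stayed within the 95% interval of the value reported (or within 1.5 times a count) and 16 moved. A change of direction was looked for only where the reported interval excluded an even split or no difference, and none was found there. Most of the main results were not of that kind. Groups by untreated or treated width alone were not among these alternatives, and there the direction did change. Upstream moves were outward in 79.9% of cases at an untreated width of 500 bp, and downstream moves in 41.4% at 1000 bp. At a treated width of 500 bp the mean midpoint shift was -24.7 bp. The mean guanine difference of gained minus lost windows, whose interval included no difference, was 0.0816 percentage points. With 1 value per pair it was -0.00312. Asking for overlap of at least 50% of each peak gave 53.5% moved pairs and 56.1% of members with an upstream move. Keeping pairs with both peaks at least 750 bp wide left 2517 members, 61.3% of such pairs, of which 41.8% were wider and 60.8% had an upstream move. There 43.4% of upstream moves were outward and the mean midpoint shift was 28.9 bp. Among members with a move of at least 500 bp these values were 63.6%, 42.6% and 38.6 bp. The share of members at a sense promoter was 53.8% with 2000 bp on either side of the start, 34.8% with protein-coding genes only and 32.6% with 1 start per gene, against 70.3%, 50.9% and 47.6% of identical pairs. Newly covered starts made up 52.6% of changed starts over every protein-coding transcript and 56.4% with 1 start per gene. Over all gene lists 53.3% of pairs had moved, and 42.9% where the start lay inside the pair. The reference held no soft-masked bases, so leaving out masked windows removed none. Alternatives for cytosine content were chosen after seeing the data: the mean excess in gained windows was 2.49 percentage points, 1.60 outside promoters and 2.14 at wider peaks. No list per replicate was analysed, so what depth and replicate scatter contribute to a move was not tested.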
